A study of Mus musculus with 6 samples.

Results

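Levels of 10 genes of inflammatory monocytes (Fn1, F13a1, Ms4a6d, Tgfbi, Mpeg1, Tmem176a, Tmem176b, Lst1, Emb and Gda) were read in splenic CD11b+Gr-1high cells of the mouse. The 10 genes belong to 12492 tested features, of which 9548 are named genes, and their 19 probes belong to 45281 on the array. They were chosen by their measured levels on these same arrays, as genes of cells from tumor-bearing mice. The comparison they were chosen on is not named, so both differences of these 10 genes that involve the tumor arrays are treated as used and given as a description with no test. Genes of other lists keep their adjusted p in every comparison, although these lists too were drawn up with earlier results known. For the 10 genes the difference between KO and wild-type cells does not use the tumor arrays and is given with its adjusted p. Both of its groups enter a comparison with the tumor arrays, however, so it is no independent support.

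The 3 groups had 2 Illumina bead arrays each. The first was wild type without a tumor, the next had the genotype IRF8 KO and no tumor, and the last was wild type and bore an AT-3 tumor, AT-3 being a mouse mammary carcinoma cell line. All had the H-2b background. Flow cytometry gave a purity above 97% in 2 independent experiments, but the labels do not tie an array to an experiment, nor give the age or number of animals behind it or the part of Irf8 that was removed.

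Inflammatory monocytes are short-lived cells with high Ly6C and the chemokine receptor CCR2 that leave the bone marrow in inflammation and in tumor-bearing mice and can become macrophages. IRF8 promotes the monocyte and dendritic cell fates of myeloid progenitors and restrains the neutrophil fate. Antibodies to Gr-1 bind Ly6C as well as Ly6G, so a Gr-1 gate can hold monocytes beside neutrophils. In bulk RNA, fewer cells of a type and less RNA per cell cannot be told apart.

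Mean signal per array lay between 264.7 and 421.3 and was lowest in both AT-3 samples, and the share of detected probes (detection p under 0.05) lay between 31.0% and 38.4%. Levels below are normalized log2 signals, whose lowest detected value was 4.79 to 5.04 depending on the array, and levels of different probes are not compared. All 9 tested genes of mature neutrophils, which are most Gr-1high cells, were detected on all 6 arrays, with S100a8 between 14.68 and 15.07 and Stfa2l1 as low as 5.40 on KO array 1. Irf8 itself gave 6.86 and 6.70 in wild type, 4.85 and 5.34 in KO and 8.82 and 8.09 in AT-3 samples. The KO samples were lowest, but where this probe lies relative to the removed part is not given in the sources used here.

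As a description, the AT-3 means of the 10 genes did not all lie above wild type. Those of Fn1, F13a1, Ms4a6d, Tmem176a and Tmem176b were higher, by 0.60 to 6.10. Those of Tgfbi, Mpeg1, Lst1, Emb and Gda were lower, with differences of -1.66 to -0.06. The KO means of all 10 genes were below wild type, at -3.50 to -0.58. In KO against wild type 7 of the 10 fell and 0 rose at an adjusted p under 0.05 in limma, where 16.5% of all features fell, 15.4% rose and 31.9% changed either way. The groups did not overlap for 8 genes, all lower in KO, where 34.7% of all features did not overlap and were lower and 34.5% higher.

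In the comparisons treated as used in the choice, the same counts are a description, and nothing is read from them. In AT-3 against wild type 4 genes were past the threshold upward and 2 downward, where 17.3% and 17.6% of all features, 34.9% in all, were. Groups did not overlap for 5 genes upward and 4 downward, where 35.4% and 36.5% of features did so. In AT-3 against KO 8 were past it upward and 0 downward, where 6.16% and 5.34%, 11.5% in all, were, and 9 genes did not overlap upward and 0 downward, where 25.6% and 29.0% did. Without scaling between arrays these splits were 3 up and 5 down, and 5 up and 2 down. The medians of all features were then -0.44 and -0.83, so the whole scale had shifted downward. Fewer of the 10 genes passed against wild type without wild-type array 2, and against KO without either AT-3 array. Calls over all features also became fewer without wild-type array 2 and, against KO, without AT-3 array 2. All 10 genes passed the filter on dim probes, 7 were detected on all 6 arrays, and 0 were detected in 1 group alone.

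**Figure D1:**
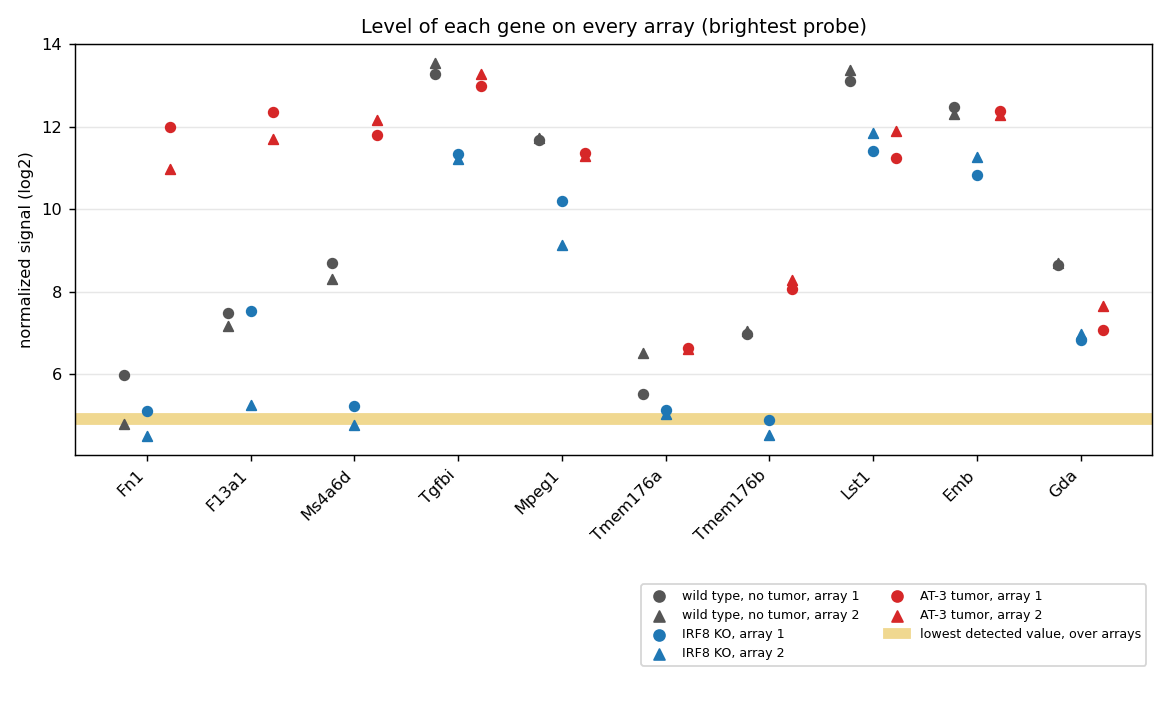
Normalized log2 signal (vertical axis) of the brightest probe of each of the 10 genes (horizontal axis) on every array, by group and replicate as keyed in the legend; the yellow band spans the lowest detected values of the arrays. Fn1 and F13a1 stand far up in AT-3 cells, Ms4a6d and Tmem176b have 3 separate steps, and Lst1 and Gda are highest in wild type.

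Fn1 encodes fibronectin, an extracellular matrix glycoprotein that integrins bind. Wild-type samples gave 5.98 and 4.81, KO samples 5.12 and 4.50, and AT-3 samples 12.00 and 10.98. As deposited, the AT-3 signals were 2663.8 and 1169, while the other 4 lay between 118.8 and 163.8. Both AT-3 samples stood far above the rest, and the probe was detected in 1 of 2 wild-type and 1 of 2 KO samples. The AT-3 mean was 68.6-fold above wild type (6.10, SE 0.48, log2), which ranked 1 of all 12492 features, and 103-fold above KO (6.68, SE 0.48). These folds rest on dim reference groups. The log2 difference from wild type was 4.30 without background correction, 3.11 as a mean over probes, 6.69 without wild-type array 1 and 5.51 without wild-type array 2, and that from KO was 4.49 without background correction and 3.26 as a mean over probes. KO and wild type overlapped, and their difference of -0.58 (SE 0.48) did not pass (adjusted p = 0.404).

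F13a1 encodes the A subunit of coagulation factor XIII, a transglutaminase that crosslinks fibrin and is made by monocytes, macrophages and platelets. Its wild-type levels were 7.49 and 7.16, its KO levels 7.53 and 5.26, and its AT-3 levels 12.35 and 11.70. AT-3 samples again stood apart, while KO array 1 was above both wild-type arrays and KO array 2 below them. The AT-3 mean was 25.9-fold above wild type (4.70, SE 0.65) and 49.4-fold above KO (5.63, SE 0.65). The latter was 6.76 when KO array 1 was left out, 4.49 when KO array 2 was, and 4.37 without background correction, where the former was 3.98. The KO difference of -0.93 (SE 0.65) did not pass (adjusted p = 0.324). When KO array 1 was left out it was -2.06 and passed (adjusted p = 0.0152). When KO array 2 was left out it was 0.20 (adjusted p = 0.693).

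Because platelets hold F13a1 transcript, platelet markers were read beside it. Of 8 markers 5 were tested, and 2 of the 5 were detected in 1 group alone. In AT-3 against wild type 0 rose and 1 fell (median -0.45), but 2 rose and 1 fell (median 0.35) with the medians of detected probes made equal between arrays. In KO 2 rose and 2 fell. Their mean normalized level was near background, at 5.27 and 5.33 in wild type, 5.17 and 5.37 in KO and 4.93 and 4.81 in AT-3 samples, and their summed signal, deposited and unscaled, was 662.3 to 701.2, 738.1 to 832.7 and 616.4 to 638.2. The part of platelet RNA in the level of F13a1 was not tested.

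Tgfbi encodes a secreted matrix protein induced by TGF-beta that binds integrins and collagens. It measured 13.29 and 13.56 in wild type, 11.35 and 11.22 in KO and 12.98 and 13.27 in AT-3 cells. KO was below both other groups, and AT-3 lay just below wild type. Tgfbi fell 4.39-fold in KO cells (-2.14, SE 0.23, adjusted p = 0.000954). The AT-3 mean differed by -0.30 (SE 0.23) from wild type and by 1.84 (SE 0.23) from KO, the latter 0.99 without scaling between arrays. A dimmer probe of Tgfbi gave -2.20 for KO and -0.12 for AT-3, each against wild type.

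RefSeq (build GRCm38.p6) lists promoter windows of 300 bases, from 250 before to 50 after a listed transcript start, for 7 of the 10 genes: F13a1, Tgfbi, Mpeg1, Tmem176a, Tmem176b, Emb and Gda. The first window of each was searched on both strands for 5 short motifs of factors active in myeloid cells. Only 1 match was found, the core of the interferon-stimulated response element (GAAANNGAA, held by 8.57% of 27025 windows) in Tgfbi. The letters GAGGAAGT for PU.1 (3.28% of windows), GGAANNGAA for the ETS-IRF composite element (8.25%), TTCNNNGAA for STAT factors (8.47%) and TTGCGNAA for C/EBP factors (0.807%) had 0 matches in the 7. The window of Tgfbi, chr13:56609336-56609635 on the plus strand, is shown because it holds that match, in capitals, at -194 to -186 from the start.
Tgfbi: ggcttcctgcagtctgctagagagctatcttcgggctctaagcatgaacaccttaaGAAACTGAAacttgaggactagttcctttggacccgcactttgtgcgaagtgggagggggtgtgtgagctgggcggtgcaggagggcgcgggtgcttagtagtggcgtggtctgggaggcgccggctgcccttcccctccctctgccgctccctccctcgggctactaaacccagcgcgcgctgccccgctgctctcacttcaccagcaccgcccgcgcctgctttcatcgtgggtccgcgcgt

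Ms4a6d encodes a membrane protein of the MS4A family made in monocytes and macrophages. Wild-type cells gave 8.70 and 8.32, KO cells 5.24 and 4.77, and AT-3 cells 11.81 and 12.17. The 3 groups were fully apart, and KO was near background, detected on 1 of 2 arrays. Ms4a6d fell 11.3-fold in KO cells (-3.50, SE 0.27, adjusted p = 0.000392). Its AT-3 mean was 11.2-fold above wild type (3.48, SE 0.27) and 127-fold above KO (6.98, SE 0.27). Without background correction the KO difference was -1.77 against wild type and the AT-3 difference 4.91 against KO. A dimmer probe kept the order, at 6.68 and 6.30, then 4.75 and 4.43, then 9.37 and 10.02. As neither KO array detected that probe, its KO level was at least 3.15-fold lower than wild type.

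Tmem176a and Tmem176b encode related membrane proteins known from dendritic cells and macrophages. The windows of these neighboring genes, chr6:48841233-48841532 on the plus strand for Tmem176a and chr6:48841088-48841387 on the minus strand for Tmem176b (GRCm38.p6), are shown because they overlap. The overlap is a stretch of 155 bases, in capitals in both, that is written on opposite strands. RefSeq lists 2 windows for Tmem176a and 3 for Tmem176b, and the first of each is printed. The annotated span of Tmem176b, 48833811 to 48845948, runs past that start and takes in Tmem176a, so the window belongs to 1 of its starts and not to the end of its span.
Tmem176a: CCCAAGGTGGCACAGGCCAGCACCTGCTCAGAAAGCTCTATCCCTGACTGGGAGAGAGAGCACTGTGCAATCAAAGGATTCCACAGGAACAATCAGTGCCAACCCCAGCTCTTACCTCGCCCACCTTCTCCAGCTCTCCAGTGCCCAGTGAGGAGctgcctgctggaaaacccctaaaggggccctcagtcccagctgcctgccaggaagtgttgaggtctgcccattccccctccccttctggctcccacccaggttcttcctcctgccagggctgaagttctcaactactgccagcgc
Tmem176b: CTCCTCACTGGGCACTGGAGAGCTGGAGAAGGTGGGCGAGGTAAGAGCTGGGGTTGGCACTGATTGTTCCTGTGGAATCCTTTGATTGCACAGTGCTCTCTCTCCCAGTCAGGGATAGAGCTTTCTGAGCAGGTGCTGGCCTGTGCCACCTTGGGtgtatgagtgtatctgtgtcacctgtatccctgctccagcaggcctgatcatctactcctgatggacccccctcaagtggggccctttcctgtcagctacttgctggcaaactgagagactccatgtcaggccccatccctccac

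Levels of Tmem176b were 6.97 and 7.06 in wild type, 4.89 and 4.52 in KO and 8.06 and 8.30 in AT-3 samples. Its 3 groups did not overlap, and KO was detected on 1 of 2 arrays. Tmem176b fell 4.97-fold in KO cells (-2.31, SE 0.23, adjusted p = 0.000764). Its AT-3 mean was 2.24-fold above wild type (1.16, SE 0.23) and 11.1-fold above KO (3.48, SE 0.23). Without background correction the KO difference was -0.88 and that of AT-3 against KO 1.62, and without scaling between arrays that of AT-3 against wild type was 0.37. Its neighbor Tmem176a, a dim gene, gave 5.53 and 6.53, then 5.13 and 5.05, then 6.65 and 6.61 in the same groups. The groups had the same order, but the wild-type samples were far apart. The KO difference of Tmem176a was -0.94 (SE 0.33, adjusted p = 0.0662), and -1.44 without wild-type array 1 (adjusted p = 0.0291). Its AT-3 mean was 0.60 (SE 0.33) above wild type and 1.54 (SE 0.33) above KO, the latter 0.56 without background correction.

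Mpeg1 encodes perforin-2, a pore-forming protein that macrophages use against engulfed bacteria. It gave 11.67 and 11.73 in wild type, 10.19 and 9.14 in KO, and 11.36 and 11.30 in AT-3 cells. KO was clearly the lowest group and the one with the widest spread. Mpeg1 fell 4.10-fold in KO cells (-2.03, SE 0.34, adjusted p = 0.00457). Its AT-3 mean differed by -0.37 (SE 0.34) from wild type and by 1.66 (SE 0.34) from KO, the latter 0.51 without scaling between arrays. As a mean over its probes, 1 of them near background, the KO difference was -1.09.

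Emb encodes embigin, an immunoglobulin-superfamily protein that brings monocarboxylate transporters to the cell surface. Wild type measured 12.47 and 12.32, KO 10.82 and 11.27, and AT-3 12.38 and 12.29. AT-3 and wild type overlapped, with KO below both. Emb fell 2.55-fold in KO cells (-1.35, SE 0.23, adjusted p = 0.00538), but not past the threshold when wild-type array 1 was left out (-1.27, adjusted p = 0.0558). The AT-3 mean differed by -0.06 (SE 0.23) from wild type and by 1.29 (SE 0.23) from KO, the latter 0.28 without scaling between arrays.

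Lst1 encodes a small leukocyte membrane protein from the MHC class III region. Its levels were 13.11 and 13.37 in wild type, 11.42 and 11.86 in KO and 11.25 and 11.90 in AT-3 samples. Wild type was above the rest, and KO and AT-3 overlapped. Lst1 fell 3.03-fold in KO cells (-1.60, SE 0.29, adjusted p = 0.00661), a call that ended when wild-type array 2 was left out (-1.47, adjusted p = 0.0627). The AT-3 mean differed by -1.66 (SE 0.29) from wild type and by -0.06 (SE 0.29) from KO. Without scaling between arrays the latter was -1.15, where the median of all features was -0.83.

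Gda encodes guanine deaminase, which turns guanine into xanthine. It measured 8.66 and 8.70 in wild type, 6.82 and 6.97 in KO, and 7.07 and 7.67 in AT-3 cells. Wild type was again highest, and KO lay below AT-3. Gda fell 3.44-fold in KO cells (-1.78, SE 0.26, adjusted p = 0.00258), with a difference of -1.18 without background correction and of -1.08 as a mean over its probes. The AT-3 mean differed by -1.31 (SE 0.26) from wild type and by 0.47 (SE 0.26) from KO, the latter turning to -0.67 without scaling between arrays.

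**Figure D2:**
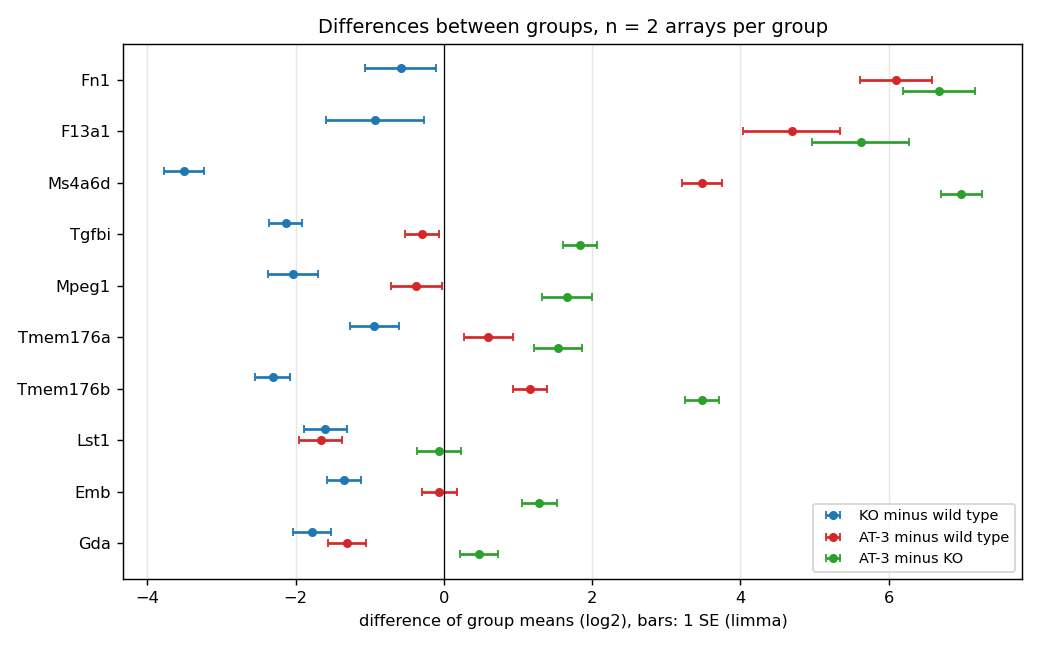
Difference of group means on the log2 scale (horizontal axis) for each of the 10 genes (vertical axis), with bars of 1 SE from limma and 2 arrays per group, for the 3 comparisons keyed in the legend. All 10 points of KO minus wild type lie below 0, whereas those of AT-3 minus wild type run from -1.66 for Lst1 to 6.10 for Fn1.

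Seen together, the 10 genes had 3 patterns of group means, a grouping made after their values were seen. Fn1, F13a1, Ms4a6d, Tmem176a and Tmem176b went up from KO through wild type to AT-3. Tgfbi, Mpeg1 and Emb had KO lowest and AT-3 just below wild type, and Lst1 and Gda were highest in wild type by a wider margin. Gda had the same order as Tgfbi, Mpeg1 and Emb, whereas the Lst1 means of AT-3 (11.57) and KO (11.64) were nearly equal. The median over the 10 genes was -1.69 in KO against wild type, 0.27 in AT-3 against wild type and 1.75 in AT-3 against KO. The median over all features was -0.01, -0.01 and -0.02 in the same comparisons.

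Scaling between arrays moved the middle of this range. Without it the median of all features was -0.44 in AT-3 against wild type, and with the medians of detected probes made equal it was 0.40. Relative to the first of these, Fn1 was 5.74, F13a1 4.37, Ms4a6d 3.04 and Tmem176b 0.81, all still higher in AT-3. On that basis Tgfbi was -0.55, Emb -0.59, Mpeg1 -1.01, Gda -1.70 and Lst1 -2.18.

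Among 1183 named genes with an SD of at least 1 over the 6 arrays, 53 had a Pearson correlation above 0.95 with the mean profile of the 10 genes. The most alike were Prcp (0.998), a lysosomal carboxypeptidase gene, and Dusp3, a phosphatase gene, Rassf4, Ctsc, the gene of the protease cathepsin C, and Ccl9, a chemokine gene (each 0.996). These correlations are over 6 arrays that form 3 groups and carry no p. The mean profile does not stand for all of the 10 genes, since Lst1 correlated with it at 0.04 and Gda at 0.33. Prcp gave 9.15 and 9.06 in wild type, 7.85 and 7.36 in KO, and 10.01 and 10.20 in AT-3 cells, so that its groups were fully apart.

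Of the 10 genes 7 have several probes, and 16 of the 19 probes were detected on at least 2 arrays. Of the 4 probes of Fn1, 1 was detected on no array. The second brightest gave 4.41 and 4.46 in wild type, 4.59 and 4.25 in KO and 7.30 and 6.32 in AT-3 samples, and was detected in the AT-3 samples alone, at least 3.59-fold above wild type. The third gave at least 1.19-fold in the same direction. The dimmer Gda probe was detected in wild type alone, at least 1.22-fold above KO and at least 1.06-fold above AT-3, and the dimmer Mpeg1 probe on 1 wild-type and 1 KO array.

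**Figure D3:**
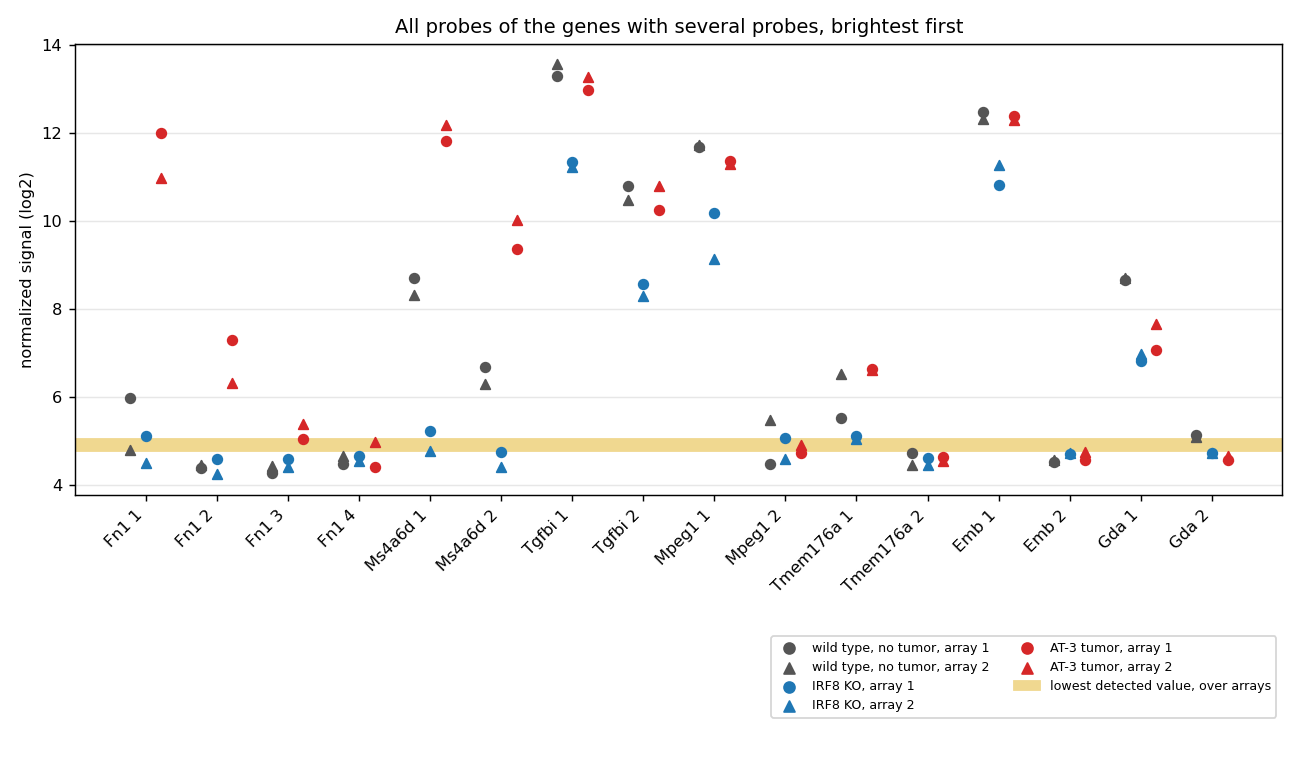
Normalized log2 signal (vertical axis) of every probe of the 7 genes with several probes (horizontal axis) on each array, by group and replicate as keyed in the legend, with a yellow band for the lowest detected values. The dimmer probes of Mpeg1, Tmem176a, Emb and Gda lie near the band, while both probes of Ms4a6d and of Tgfbi have KO lowest.

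Of 22 other genes of inflammatory monocytes 17 were tested, and 2 of these, Vcan and Thbs1, were detected in 1 group alone and had to differ there. In KO against wild type 10 fell, 3 rose and 4 did not pass, with a median of -1.31. Of the 15 detected in more than 1 group 10 fell and 2 rose, with a median of -1.87. Clec4a3 and Clec4a1, genes of C-type lectin receptors, fell by 4.95 (SE 0.23, adjusted p = 0.000202) and by 4.73 (SE 0.24, adjusted p = 0.000216). Thbs1, the gene of the matrix protein thrombospondin-1, was detected in KO alone, at least 10.5-fold above wild type, and is given with no p because it passed the filter only through that group. Ly6c1, a gene of the Ly6C antigen, rose 3.25-fold (1.70, SE 0.22, adjusted p = 0.00173), but its probe may also read the near-identical Ly6c2.

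In AT-3 against wild type 10 of the 17 rose, 2 fell and 5 did not pass, with a median of 0.86, and of the 15 genes above 9 rose and 2 fell. Ccr2, the receptor gene that marks these monocytes, gave 5.15 and 5.54 in wild type and 8.44 and 9.26 in AT-3 samples. This was a rise of 11.4-fold (3.51, SE 0.31, adjusted p = 0.000781), and Ccr2 was detected on no KO array. The lowest detected values of the wild-type arrays were 4.97 and 4.95, so this fold rests on a dim reference group. F10, the gene of coagulation factor X, rose 16.2-fold (4.02, SE 0.64, adjusted p = 0.00409). Csf1r, the receptor gene for macrophage colony-stimulating factor, fell by 1.45 (SE 0.27, adjusted p = 0.00644), though not past the threshold without wild-type array 1 (adjusted p = 0.0583) or as a mean over its probes (-1.07, adjusted p = 0.124). The calls were 5 up and 0 down without wild-type array 1 and 5 up and 1 down without wild-type array 2. They were 5 up and 4 down without scaling, and 10 up and 4 down with equal medians of detected probes.

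In AT-3 against KO 12 of the 17 rose and 1 fell, with a median of 2.82, and of the 15 genes 11 rose and 0 fell, with a median of 3.09. Pld4, the gene of an endolysosomal nuclease, was higher by 5.66 (SE 0.31, adjusted p = 0.000205). Ly86, which encodes MD-1, a partner of the receptor RP105, was higher by 5.01 (SE 0.30, adjusted p = 0.000246).

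**Figure D4:**
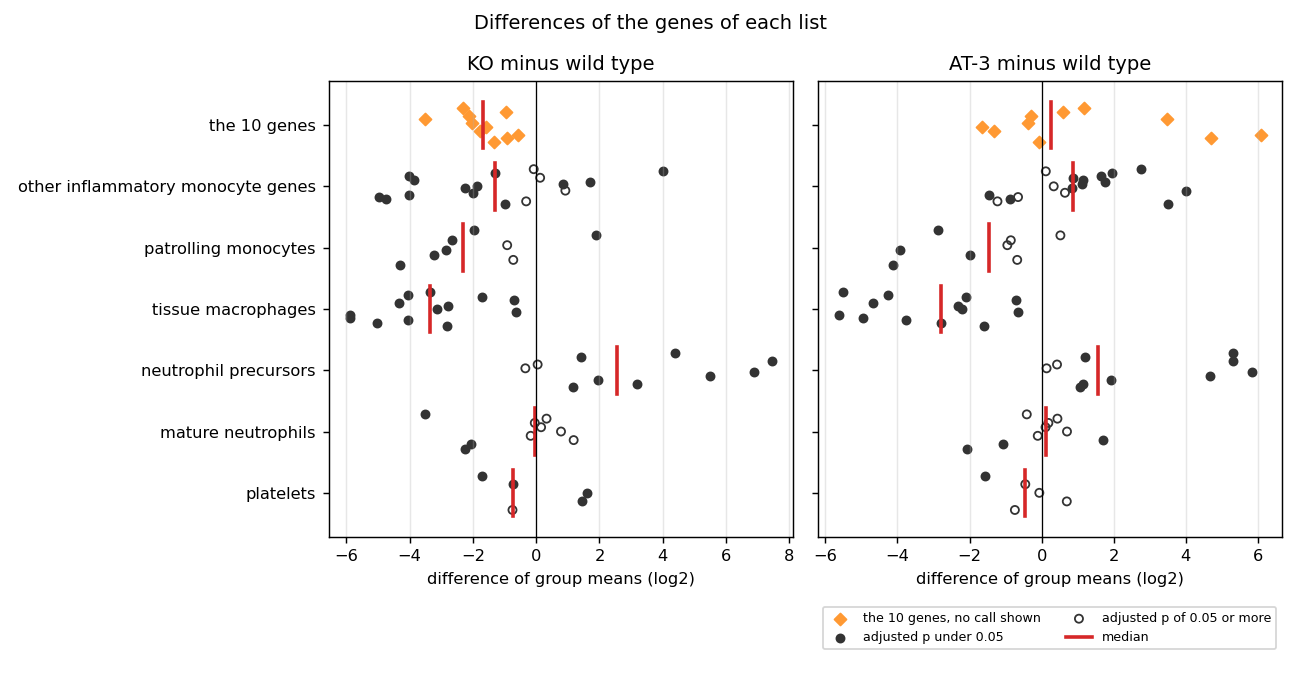
Difference on the log2 scale (horizontal axes) of each tested gene of several lists (vertical axis), for KO minus wild type on the left and AT-3 minus wild type on the right; orange diamonds are the 10 genes, filled circles passed an adjusted p under 0.05, open circles did not, and red lines are medians. Tissue macrophage markers lie below 0 in both panels, and inflammatory monocyte genes have a median of -1.31 on the left and 0.86 on the right.

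Markers of other cells that the sort could hold moved in the same comparisons. Of 16 tissue macrophage markers 13 were tested, 3 of them detected in 1 group alone, and all 13 fell both in KO and in AT-3 cells (medians -3.35 and -2.79), as did all 10 detected in more than 1 group. Their mean normalized level was 9.35 and 9.21 in wild type, 5.80 and 5.94 in KO and 6.01 and 6.23 in AT-3 samples. AT-3 was thus not below KO on this scale, with 2 genes higher, 1 lower and a median difference of 0.27. This split depended on the scaling. With equal medians of detected probes 10 of these markers were higher and 1 lower in AT-3 than in KO (median 1.19). Without scaling between arrays 1 of these markers was higher and 2 were lower (median -0.02). Their summed signal, deposited and unscaled and in KO mostly that of Slc40a1 (8529.8 on KO array 1), was 37061 to 40647, 9827 to 10698 and 4932 to 5353. C1qc, a chain of complement C1q, fell by 5.88 in KO (SE 0.27, adjusted p = 0.000202) and by 5.61 in AT-3 cells (SE 0.27, adjusted p = 0.000236), while C1qa, Cd163 and Siglec1 were detected on no KO and no AT-3 array. Lst1 and Gda were lower in these same groups, and in KO so were the other genes of the 10 that fell. The part of macrophage RNA in their levels was not tested.

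Of 12 markers of patrolling monocytes 8 were tested, 2 of them detected in 1 group alone. In KO 5 fell and 1 rose, and in AT-3 against wild type 4 fell and 0 rose. Of the 6 detected in more than 1 group 4 fell and 1 rose in KO, and 3 fell and 0 rose in AT-3 cells. Ace, the gene of angiotensin-converting enzyme, was detected in wild type alone, at least 15.2-fold above KO and at least 13.2-fold above AT-3. The mean normalized level of the 8 was 8.01 and 7.92 in wild type, 5.96 and 6.27 in KO and 5.95 and 6.27 in AT-3 samples, overlapping between KO and AT-3. Their unscaled summed signal was 4038.6 to 4856.2 in wild type, 2035.5 to 2266.6 in KO and 1298.2 to 1499.4 in AT-3 samples.

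All 10 neutrophil precursor genes were tested, and 8 rose and 0 fell both in KO and in AT-3 cells (medians 2.56 and 1.56), the latter count being 4 without wild-type array 1 and 5 without wild-type array 2. Their unscaled summed signal was 91555 to 93630 in wild type, 154647 to 189628 in KO and 124293 to 133116 in AT-3 samples. The sum was highest on KO array 1. Of the 10 genes, Fn1, F13a1, Ms4a6d, Tgfbi, Mpeg1, Tmem176a and Tmem176b were also higher there than on KO array 2. Lst1, Emb and Gda were lower there. Of 9 tested mature neutrophil genes, 3 fell in KO, and 1 rose and 2 fell in AT-3 against wild type, a count that was 0 without either wild-type array and 1 without AT-3 array 1. Of 4 tested dendritic cell markers only Batf3, a factor of conventional dendritic cells, fell, at least 4.89-fold in KO (adjusted p = 0.000413) and likewise in AT-3 against wild type (-2.02, adjusted p = 0.000966). Of 2 tested B cell and 3 tested T cell markers, Cd79b and Cd3e rose in KO and 0 passed in AT-3 against wild type, and both calls in KO ended without wild-type array 1. Scaling moved several of these splits. Without it, 2 mature neutrophil genes rose and 3 fell in KO, and 0 rose and 3 fell in AT-3 against wild type. With equal medians of detected probes, the latter were 3 up and 2 down, and in the same comparison platelet markers were 2 up and 1 down, patrolling monocyte markers 1 up and 5 down, dendritic cell markers 1 up and 1 down and T cell markers 2 up and 0 down. The part of these cells in the levels of the 10 genes was not tested.

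Of 9 transcription factors of the monocyte and granulocyte fates 7 were tested. In KO 2 rose and 4 fell, 2 and 1 without wild-type array 1. In AT-3 against wild type 2 rose and 2 fell, but only 1 passed without wild-type array 1, 0 without wild-type array 2 and 2 without AT-3 array 1, and without scaling 0 rose and 2 fell. Irf8 was lower in KO than in wild type (-1.69, SE 0.31, adjusted p = 0.0063), though not past the threshold without wild-type array 1 (adjusted p = 0.0553) or without background correction (-0.63, adjusted p = 0.0519). It was 10.3-fold higher in AT-3 than in KO cells (3.36, SE 0.31, adjusted p = 0.00104). Cebpe and Gfi1, factors of neutrophil development, rose in KO cells by 3.18 (SE 0.28, adjusted p = 0.000532) and 3.46 (SE 0.48, adjusted p = 0.00221). The 2 that rose in AT-3 against wild type were Irf8 (1.67, SE 0.31, adjusted p = 0.00651) and Cebpe (1.15, SE 0.28, adjusted p = 0.0183). Without scaling between arrays these 2 differences were 0.87 and 0.28, and neither passed. The 2 that fell there were Spi1 (-1.39, SE 0.32, adjusted p = 0.0156) and Cebpb (-1.35, SE 0.26, adjusted p = 0.00784). In KO against wild type Cebpb was at -1.92 (SE 0.26, adjusted p = 0.00208) and Klf4 at -1.87 (SE 0.57, adjusted p = 0.0428). Without scaling between arrays Klf4 was at -1.72 and did not pass (adjusted p = 0.0536).

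Partners of single genes were read last. All 5 integrin genes of fibronectin receptors were tested, and 3 fell and 0 rose in AT-3 against wild type (median -1.18), where Fn1 was higher. Itga5, a chain of the classical fibronectin receptor, was at -1.71 there (SE 0.27, adjusted p = 0.00394) and at -3.07 in KO (SE 0.27, adjusted p = 0.000521). Of 7 TGF-beta pathway genes 5 were tested, and 4 fell and 0 rose in each comparison with wild type (medians -1.38 in KO and -1.23 in AT-3), the AT-3 count being 2 without wild-type array 1 or AT-3 array 1. The receptor gene Tgfbr2 fell by 2.58 in KO (SE 0.29, adjusted p = 0.00108) and by 2.18 in AT-3 cells (SE 0.29, adjusted p = 0.00219).

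Of 3 genes of monocarboxylate transport with embigin 2 were tested, and 1, Slc16a3, fell in each comparison with wild type. In AT-3 it was at -1.18 (SE 0.31, adjusted p = 0.0231), where Emb was at -0.06. With equal medians of detected probes that Slc16a3 difference was -0.71 and did not pass (adjusted p = 0.0717). The transporter gene Slc16a3 fell by 1.47 in KO (SE 0.31, adjusted p = 0.0108), but not past the threshold without wild-type array 1 (adjusted p = 0.0902) or without KO array 1 (adjusted p = 0.0526). Of 4 genes of purine breakdown and salvage 3 were tested. In KO 2 rose, Ada and Hprt, and in AT-3 against wild type 1 rose, Ada. These calls did not hold without wild-type array 2, and 0 rose and 1 fell in AT-3 without scaling. Ada, the gene of adenosine deaminase, rose 2.67-fold in KO (1.42, SE 0.24, adjusted p = 0.00508), where Gda fell. Hprt, a gene of purine salvage and not of breakdown, was at 0.99 in KO (SE 0.30, adjusted p = 0.0438). With equal medians of detected probes Hprt was at 0.64 and did not pass (adjusted p = 0.0950).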

How the data were processed

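RNA of 6 samples was hybridised to Illumina bead arrays and read with GenomeStudio, per the submitters' processing notes. The deposited unnormalized table gives an intensity for each probe on each array and, per the file headers, a detection p-value. A second table from the authors holds log2 values. By comparison they equal quantile-normalized log2 intensities without background correction, and they served as an alternative.

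Background was corrected by normexp with the detection p-values (offset 16), followed by quantile normalization and log2 (neqc, limma 3.58.1, R 4.3.3). A probe needed a detection p under 0.05 on 2 or more arrays (17631 passed), and the brightest probe stood for a gene. This left 12492 features, 2944 of them unnamed probes. Platform symbols were updated through Entrez identifiers for 34807 of the 34885 probes with 1 symbol, while 18 had several and 10378 had none.

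All 6 arrays entered 1 limma fit (lmFit, eBayes) with a mean per group, 3 residual degrees of freedom and Benjamini-Hochberg adjustment over all features. The fit was also run on normal data simulated with its own estimates of spread, which cannot show how well it suits these arrays. With 2 arrays a group, an exact test could not go below p = 0.333. "At least" folds use, on each array of the dim group, the lowest detected value or the probe's own if higher.

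The members and lists were chosen with earlier results of these data known. Named are all members, up to 2 genes per list, comparison and direction, Irf8 and the 5 most alike genes. S100a8, Stfa2l1, Vcan, Slc40a1, C1qa, Cd163 and Siglec1 were singled out after their values were seen. Alternatives changed the background correction, scaling, filter, probe choice, arrays, prior, threshold and replicate block, or left out an array.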

Additional observations from a re-analysis of the deposited data

How the results depend on the processing

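In 19 alternatives, 5 to 8 of the 10 genes were called lower in KO than in wild type, and 0 higher, against 7 in the report. The count of 5 came with detection under 0.01 on all arrays, where only 6 of the 10 were tested. Leaving out an array gave 6 to 8. In AT-3 against wild type the count of 6 became 3 with detection under 0.01 on all arrays, which left 6 of the 10, and 3 to 6 when an array was left out. In AT-3 against KO the count of 8 became 4 with that filter, 5 at an adjusted p under 0.01, and 5 to 7 when an array was left out. For the other inflammatory monocyte genes that filter left 9. It gave 6 calls in place of 13 in KO, 7 in place of 12 in AT-3 (both against wild type), and 5 in place of 13 between AT-3 and KO. Leaving out an array gave 9 to 12, 5 to 13 and 11 to 14. Over all features, 3990, 4360 and 1436 calls became as few as 1541 and 1531, both without wild-type array 2, and 442, without AT-3 array 2.

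Deviations of same-numbered arrays correlated at -0.06 to 0.09, so little deviation was shared by number. With 2 arrays per group these values cannot tell whether the numbers pair the samples. With the replicate block, 7, 6 and 8 of the 10 genes were called in the 3 comparisons, and 3750, 4154 and 1279 of all features. Without scaling, Gda (-0.67), Spi1 (-1.0), Tgfbr2 (-0.87) and Tgfb1 (-0.87) turned to lower in AT-3 than in KO, where the median of all features was -0.83. When detected probes were given equal medians, Gp9 turned to higher in AT-3 than in wild type (0.67), where that median was 0.40. The cause was not tested. Signal over background limits dim genes: without background correction Fn1 was 4.30 and Tmem176b 0.74 in AT-3 against wild type, and Ms4a6d -1.77 in KO.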
